A study of Mus musculus with 18 samples.

Results

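Large, fast-conducting sensory neurons of the dorsal root ganglia (DRG) are described here through 8 genes that mark them: the neurofilament genes *Nefh*, *Nefm* and *Nefl*, the calcium-binding protein genes *Pvalb*, *Calb1* and *Necab2*, *Spp1* (osteopontin) and the axonal adhesion gene *Cntnap2*. They were chosen by name, and every probe set that the platform annotation gives to 1 of these genes alone was taken. This gave 13 of the 45037 probe sets tested, for 7 of the 8 genes, out of 18193 genes in all. *Nefh* has the probe set 1424847_at, *Nefm* 1422520_at, *Pvalb* 1417653_at and *Necab2* 1418881_at, while *Nefl* has 1426255_at and 1454672_at, *Calb1* has 1417504_at, 1448738_at, 1456934_at and 1458836_at, and *Cntnap2* has 1422798_at, 1437782_at and 1450758_at, with the first of each being the brightest. *Spp1* has no entry in the annotation table used and was not analysed here, and no filter on low values was applied, so all 7 measured genes were tested. DRG RNA came from knockout (KO) mice and littermates of 3 lines, with 3 arrays per group and 18 arrays in 6 groups. In Nav1.7 KO mice the floxed *Scn9a* gene was deleted by Cre driven by Advillin (*Avil*), so in sensory neurons only, while KO mice of the Nav1.8 line carry a global null allele of *Scn10a* and those of the Nav1.9 line a global null allele of *Scn11a*. The littermates carry the label wild type, and for Nav1.7 the methods do not say whether they carry floxed alleles or Cre. The study used female and male mice aged 8 to 12 weeks, and ganglia of all spinal levels were taken whole, so their glia and other non-neuronal cells are included. A legend of the study gives n = 3 Nav1.7 KO mice and n = 3 littermates, but whether each array held RNA of 1 mouse is not stated. The Nav1.7 and Nav1.8 KO groups each held arrays that differed in the sex marker *Xist* (given below), so their arrays were not all of 1 RNA sample. The p-values measure only the spread between these samples, which may be technical in part.

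Sensory neurons with thick myelinated axons carry touch and body position. Proprioceptors innervate muscle spindles and tendon organs, and low-threshold mechanoreceptors end in skin and on hair follicles. Their wide axons are filled with neurofilaments built from light, medium and heavy chains, and calcium-binding proteins of the EF-hand type label subsets of them. Next to each node of Ranvier, the contactin-associated protein Caspr2, the product of *Cntnap2*, holds potassium channels in place under the myelin. Small neurons with thin axons, in which Nav1.8 and Nav1.9 are chiefly found, express less neurofilament, and Nav1.7 is found in most DRG neurons.

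The values were log2 intensities, where a difference of 1 is a doubling of signal. Each gene was represented by its brightest probe set and tested in limma on all genes, and a change was called at a Benjamini-Hochberg adjusted p under 0.05. The log2 fold change of the targeted gene was -1.57 for *Scn10a* in Nav1.8 KO DRG (adjusted p = 5.4e-05 from limma), -1.85 for *Scn11a* in Nav1.9 KO DRG (7.13e-07) and -0.06 for *Scn9a* in Nav1.7 KO DRG (0.642). Arrays of 1 group correlated at 0.9958 to 0.9982. The female-specific transcript *Xist* was high in 7 arrays and low in 11, and the classes were unevenly spread: 2 of 3 Nav1.7 KO arrays and all 3 Nav1.7 littermate arrays were high, 1 of 3 Nav1.8 KO arrays and all 3 Nav1.8 littermate arrays were low, and all 6 arrays of the Nav1.9 line were low. In whole ganglia, fewer neurons of a type and less RNA per neuron cannot be told apart.

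*Necab2* was the only measured marker that changed in any KO line. It encodes a neuronal EF-hand calcium-binding protein. Its level was 8.13, 7.77 and 8.05 in Nav1.7 KO arrays, against 8.50, 8.47 and 8.30 in Nav1.7 littermate arrays. The groups did not overlap, and the log2 fold change was -0.44 (SE 0.103, 95% interval -0.66 to -0.22, 1.36-fold lower, adjusted p = 0.0219 from limma), with all 3 KO arrays below all 3 littermate arrays. The remaining 6 genes did not pass, so 0 markers rose and 1 of 7 fell, where 4.33% of all genes were called in this comparison. The call on *Necab2* was lost when littermate array 1, littermate array 2 or KO array 2, which had the lowest value, was left out (adjusted p = 0.0845, 0.0792 and 0.102 from limma). KO array 2 was also the only *Xist*-low array of this line, and without it the log2 fold change was -0.33. With a term for the *Xist* class the *Necab2* change was -0.40 (adjusted p = 0.0562), and with the line fitted alone the adjusted p was 0.119.

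The genome sequence just upstream of *Necab2* is shown because this gene carries the 1 called change, and that of *Pvalb* because it is a calcium-binding marker without one. Both are 250 bases long, 5′ to 3′ in the direction of transcription, from RefSeq on build GRCm38.p6, and end just before an annotated start. Of the 7 measured genes, 3 were matched to such windows, 5 in all, since *Pvalb* and *Cntnap2* each have 2 annotated starts. Capitals mark E-boxes (CANNTG). *Necab2* lies on chromosome 8 from 119446719 to 119472640, and its window is chr8:119446469-119446718 on the plus strand. *Pvalb* lies on chromosome 15 from 78191112 to 78206400, and its window is chr15:78206401-78206650 on the minus strand.
Necab2: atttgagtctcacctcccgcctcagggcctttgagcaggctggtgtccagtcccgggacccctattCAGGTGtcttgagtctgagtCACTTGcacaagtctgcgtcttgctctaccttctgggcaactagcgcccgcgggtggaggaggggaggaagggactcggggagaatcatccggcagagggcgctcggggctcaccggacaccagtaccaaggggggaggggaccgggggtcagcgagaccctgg
Pvalb: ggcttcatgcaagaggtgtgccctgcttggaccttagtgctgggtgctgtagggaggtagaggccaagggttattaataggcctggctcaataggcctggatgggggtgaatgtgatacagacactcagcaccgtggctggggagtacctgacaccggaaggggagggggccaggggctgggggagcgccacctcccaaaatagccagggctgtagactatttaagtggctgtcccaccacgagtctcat
The *Necab2* window holds 64.0% G and C and 13 CpG pairs, the printed *Pvalb* window 58.4% and 4, where the median of all 32851 windows of this length was 52.4% and 6. The window at the other *Pvalb* start, chr15:78204238-78204487, holds 71.6% and 23, so the order of *Necab2* and *Pvalb* in base composition depends on the start taken. The *Necab2* window holds 2 E-boxes, the printed *Pvalb* window 0 and the other *Pvalb* window 1, and 66.2% of all windows hold at least 1. Searched on both strands, none of these 3 windows holds a GC box (GGGCGG, in 32.7% of all windows), a TATA box (TATAAA, in 12.4%), a Runx core (TGTGGT, in 14.0%) or an Nfat core (TGGAAA, in 18.6%). A match describes the letters only.

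**Figure D1:**
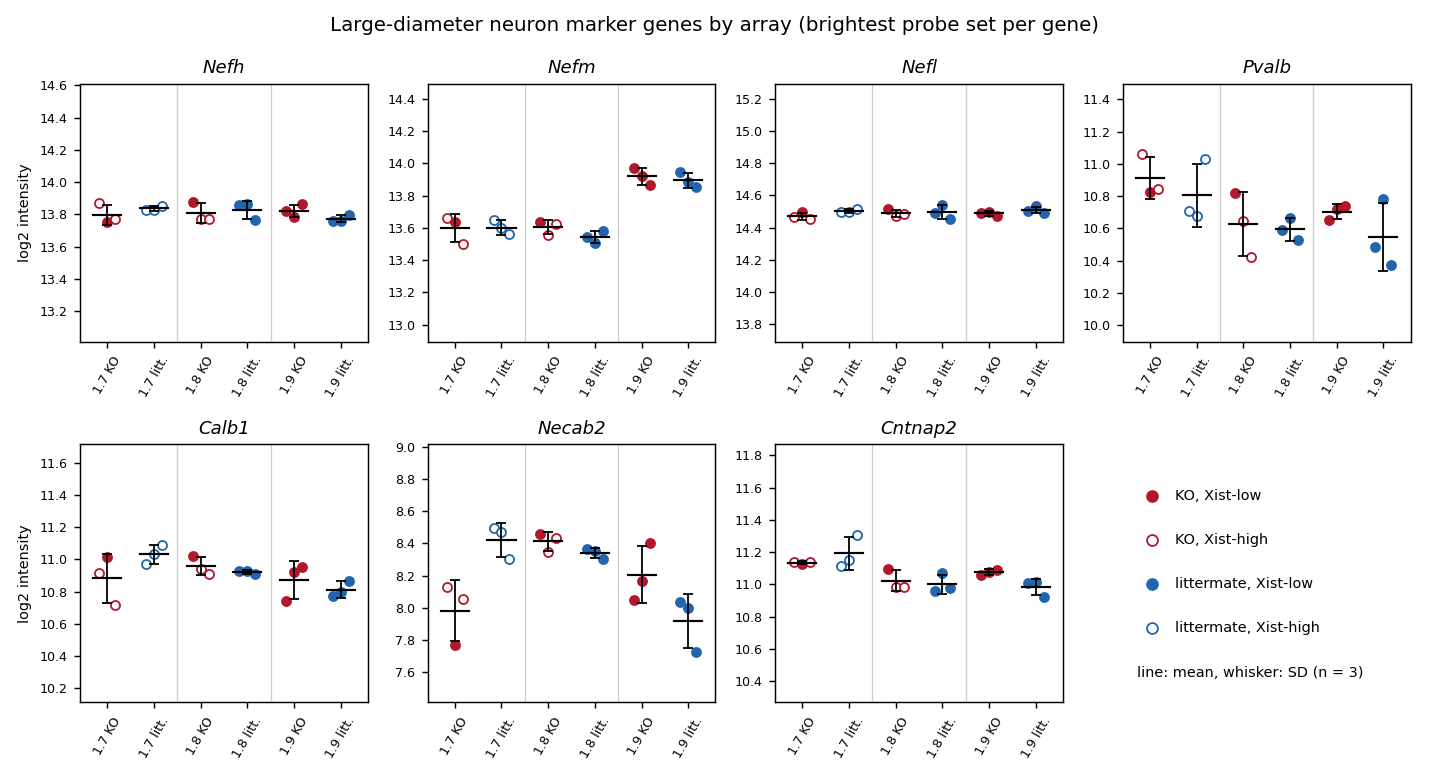
Log2 intensity of the 7 measured marker genes in each of the 18 arrays, on axes that each span 1.6 log2 units, with KO arrays in red left of littermate arrays in blue for each line (lines: mean, whiskers: SD of 3 arrays; open points: *Xist*-high arrays). *Necab2* lies between 7.77 and 8.13 in Nav1.7 KO arrays, below the 8.30 to 8.50 of the littermates, and *Nefm* is near 13.9 in all 6 arrays of the Nav1.9 line.

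The 3 neurofilament genes, which mark large axons, did not pass in Nav1.7 KO DRG. *Nefh* encodes the heavy chain and was 13.87, 13.75 and 13.77 in Nav1.7 KO arrays, against 13.83, 13.83 and 13.85 in littermate arrays. The ranges overlapped, with a log2 fold change of -0.04 (95% interval -0.13 to 0.06, adjusted p = 0.743 from limma). *Nefm*, the medium chain, was 13.66, 13.64 and 13.50 in Nav1.7 KO arrays and 13.65, 13.60 and 13.56 in littermate arrays, a log2 fold change of 0.00 (95% interval -0.11 to 0.10). *Nefl*, the light chain, was 14.46, 14.50 and 14.45 in Nav1.7 KO arrays and 14.50, 14.50 and 14.51 in littermate arrays (log2 fold change -0.03, 95% interval -0.11 to 0.04, adjusted p = 0.708 from limma). The highest KO and the lowest littermate value of *Nefl* were the same to 2 decimals. A second probe set of the gene, 1454672_at, gave 13.54, 13.51 and 13.61 in Nav1.7 KO arrays, against 13.67, 13.65 and 13.71 in littermate arrays (log2 fold change -0.13, adjusted p over all probe sets 0.188 from limma). Under a trend and robust prior this probe set passed (adjusted p = 0.0276). The brightest *Nefl* probe set lay 0.0889 to 0.228 log2 units below the highest value on its array, and whether it was saturated cannot be read from these values. On the same build, *Nefl* lies on chromosome 14 from 68083863 to 68089095 and *Nefm* beside it from 68119545 to 68125004, while *Nefh* lies on chromosome 11 from 4938754 to 4948064.

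The other calcium-binding genes of the group did not pass. *Pvalb* encodes parvalbumin, a marker of proprioceptors that fast skeletal muscle also expresses. It was 11.06, 10.83 and 10.84 in Nav1.7 KO arrays and 10.71, 10.67 and 11.03 in littermate arrays, with a log2 fold change of 0.11 (95% interval -0.14 to 0.35, adjusted p = 0.727 from limma). *Calb1* encodes calbindin D28k, which buffers calcium in several types of neurons. Its brightest probe set was 10.92, 11.02 and 10.72 in Nav1.7 KO arrays and 10.97, 11.03 and 11.09 in littermate arrays (log2 fold change -0.15, 95% interval -0.29 to 0.00, adjusted p = 0.309 from limma). A second probe set of the gene, 1448738_at, gave 5.96, 6.35 and 5.90 in Nav1.7 KO arrays and 6.65, 6.62 and 6.60 in littermate arrays. These did not overlap, but the log2 fold change of -0.55 (95% interval -0.90 to -0.21) did not pass (adjusted p = 0.106 from limma). The remaining 2 probe sets of *Calb1* overlapped. The log2 fold change was -0.14 for 1456934_at (95% interval -0.38 to 0.11) and 0.07 for 1458836_at (95% interval -0.12 to 0.26), a dim probe set with a mean level of 3.84, above only 8.02% of all probe sets. *Calb1* lies on chromosome 4 from 15881264 to 15906709. *Cntnap2*, the juxtaparanodal adhesion gene, on chromosome 6 from 45060061 to 47301393, was 11.14, 11.13 and 11.14 in Nav1.7 KO arrays and 11.12, 11.15 and 11.31 in littermate arrays (log2 fold change -0.06, 95% interval -0.17 to 0.05, adjusted p = 0.656 from limma). Its probe set 1437782_at was at 0.02 and overlapped (adjusted p over all probe sets 0.921 from limma). The dimmer 1450758_at was at -0.14 (0.54), with all KO arrays below all littermate arrays.

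**Figure D2:**
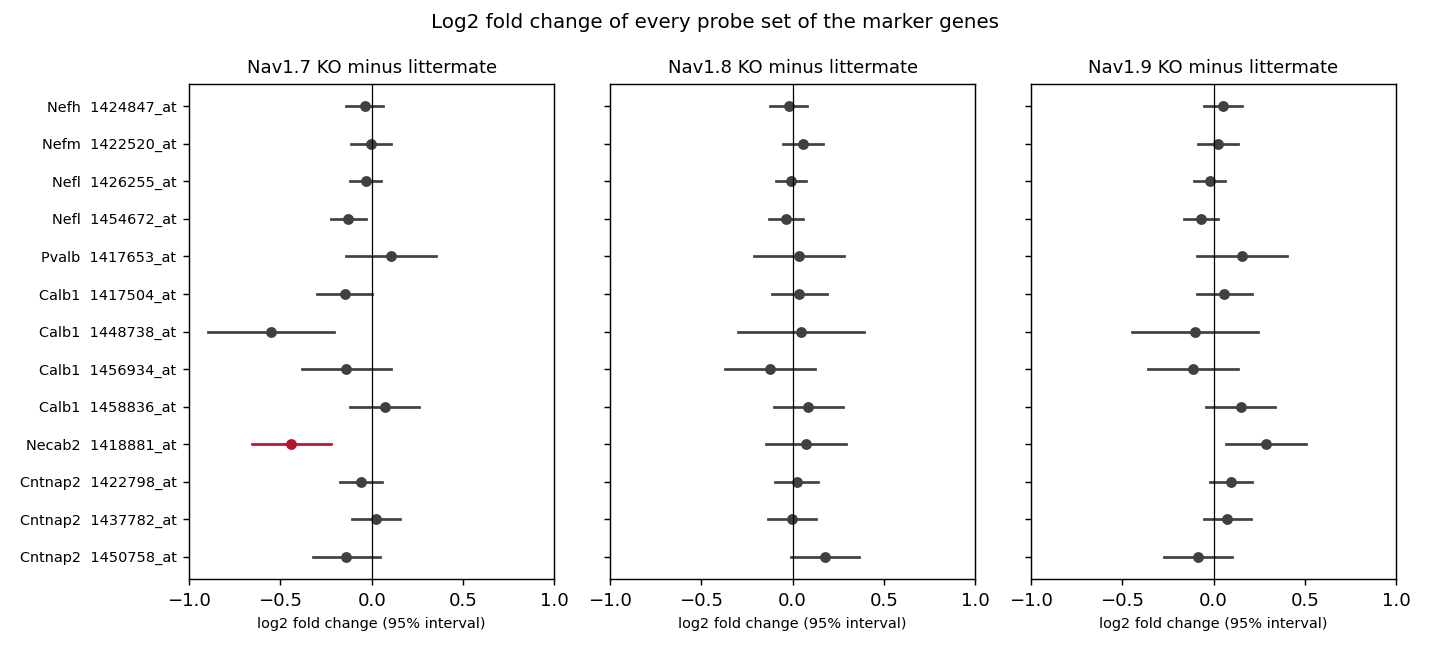
Log2 fold change of KO minus littermate arrays for all 13 probe sets of the marker genes in the 3 lines, with 95% intervals from limma and probe sets called at an adjusted p under 0.05 in red. Only the *Necab2* probe set in Nav1.7 KO DRG is red, at -0.44.

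Over the 13 probe sets, 1 passed in Nav1.7 KO DRG, that of *Necab2* (adjusted p = 0.0333 from limma), where 2.27% of all probe sets were called. By the brightest probe set of each gene, KO and littermate arrays did not overlap for 2 of the 7 genes in the Nav1.7 line, *Nefl* and *Necab2*, both lower in KO, where 20.4% of all genes did not overlap. The median log2 fold change of the 7 genes was -0.04 in Nav1.7 KO DRG, against 0.01 over all genes.

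In Nav1.8 KO DRG the 7 markers stayed within -0.02 and 0.07 on the log2 scale, and 0 passed, by limma, with 0 at an unadjusted p under 0.05, where 0.0165% of all genes were called. Of their 13 probe sets 0 passed, by limma, with 0 at an unadjusted p under 0.05, where 0.00666% of all probe sets were called. *Necab2* was 8.46, 8.35 and 8.44 in Nav1.8 KO arrays and 8.37, 8.35 and 8.31 in littermate arrays. *Pvalb* was 10.82, 10.64 and 10.42 in Nav1.8 KO arrays and 10.59, 10.67 and 10.53 in littermate arrays, the widest spread of the group in this line. The 95% intervals of the 3 neurofilament genes lay between -0.12 and 0.16. None of the 7 genes had groups that did not overlap, where 13.8% of all genes did.

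In Nav1.9 KO DRG 0 markers passed, by limma, and 1 had an unadjusted p under 0.05, where 0.473% of all genes were called. Of the 13 probe sets 0 passed, by limma, with 1 at an unadjusted p under 0.05, where 0.242% of all probe sets were called. *Necab2* was 8.05, 8.17 and 8.40 in Nav1.9 KO arrays and 8.03, 7.997 and 7.72 in littermate arrays. All KO arrays lay above all littermate arrays, and the log2 fold change was 0.29 (95% interval 0.07 to 0.51, adjusted p = 0.27 from limma). *Cntnap2* was 11.06, 11.08 and 11.09 in Nav1.9 KO arrays and 11.01, 11.01 and 10.92 in littermate arrays, also without overlap (log2 fold change 0.09, adjusted p = 0.497 from limma). These 2 genes of 7 did not overlap, where 18% of all genes did not. *Pvalb* was 10.65, 10.72 and 10.74 in Nav1.9 KO arrays and 10.48, 10.78 and 10.37 in littermate arrays (log2 fold change 0.16, 95% interval -0.09 to 0.41). The 3 neurofilament genes differed by -0.02 to 0.05.

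A list of 10 genes that rise after nerve injury was added after these values had been seen. Its mean level was 7.86 to 8.002 in Nav1.9 KO arrays and 8.59 to 9.47 in Nav1.9 littermate arrays, the highest of the 6 groups, and 6 of the 10 genes fell in Nav1.9 KO DRG, where 0.473% of all genes were called. Of these 6, *Jun* was lost without littermate array 1 or KO array 2 (adjusted p = 0.0527 and 0.0539 from limma), *Cckbr* without littermate array 1 or 3 or any KO array (0.0518 to 0.118), and all 6 with the line fitted alone (0.0598 to 0.229). It was 7.97 to 8.26 in Nav1.7 KO arrays and 7.78 to 7.82 in Nav1.7 littermate arrays. It was 7.80 to 8.01 in Nav1.8 KO arrays and 8.14 to 8.34 in Nav1.8 littermate arrays. The *Necab2* mean was 7.98 in Nav1.7 KO arrays against 8.42 in littermates, and 8.21 in Nav1.9 KO arrays against 7.92 in littermates. In the Nav1.8 line it was 8.41 in KO arrays against 8.34 in littermates, where the groups overlapped and a term for the *Xist* class gave a difference of -0.0137. The part of this list in the *Necab2* values was not tested.

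The difference of KO effects between lines was tested next. For *Necab2* the effect in Nav1.7 minus that in Nav1.9 was -0.73 (SE 0.145, adjusted p = 0.0106 from limma, not called with the replicate number as a block at 0.0634), and it was 1 of 7 markers called, where 2.82% of all genes were. Against Nav1.8 it was -0.51 (adjusted p = 0.0909), and 0 of 7 markers passed, with 1 at an unadjusted p under 0.05, where 2.15% of all genes were called. Between Nav1.9 and Nav1.8, 0 of 7 passed by limma, with 0 at an unadjusted p under 0.05, where 0.0385% of all genes were called. The effects share no arrays, since each line has its own littermates. The *Necab2* mean was 8.42 in Nav1.7 and 7.92 in Nav1.9 littermates, and 7.98 and 8.21 in the KO arrays of these lines. Its difference of effects thus takes in the gap between littermate groups as well as that between KO groups. With the *Xist* class in the model this difference was -0.68 (adjusted p = 0.0201 from limma).

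The littermate groups were also set against each other, as a measure of how far the markers vary without a channel deletion. More calls were made among the markers here than between KO and littermates, as over all genes, and *Nefm* had the smallest adjusted p. Of all genes 12.2% to 23.3% were called between littermate groups, against 0.0165% to 4.33% between KO and littermates. In littermates of the Nav1.9 line *Nefm* was 13.95, 13.89 and 13.86, against 13.55, 13.51 and 13.58 in Nav1.8 littermates, a difference of 0.35 (adjusted p = 0.000878 from limma). Against Nav1.7 littermates, the difference of Nav1.7 minus Nav1.9 was -0.29 (adjusted p = 0.000995). The KO arrays of the Nav1.9 line, at 13.97, 13.92 and 13.87, lay in the same range, above all 12 arrays of the other lines. The order of the group means was Nav1.9 KO at 13.92, Nav1.9 littermates at 13.90, then the other 4 groups between 13.55 and 13.60, and neighbours in this order within a line did not differ beyond their spread.

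*Necab2* and *Cntnap2* also differed between littermates. *Necab2* was 0.50 higher in Nav1.7 than in Nav1.9 littermates (adjusted p = 0.0046 from limma), and its difference of Nav1.9 minus Nav1.8 littermates was -0.42 (adjusted p = 0.0149). The size in Nav1.7 against Nav1.9 littermates exceeded that of the KO effect in the Nav1.7 line. *Cntnap2* was 0.19 higher in Nav1.7 than in Nav1.8 littermates (adjusted p = 0.0143 from limma) and 0.21 higher than in Nav1.9 littermates (adjusted p = 0.0143). In all, 1 of 7 markers was called between Nav1.7 and Nav1.8 littermates, where 23.3% of all genes were, 3 of 7 between Nav1.7 and Nav1.9 littermates, where 12.2% were, and 2 of 7 between Nav1.9 and Nav1.8 littermates, where 12.8% were. *Nefh*, *Nefl* and *Pvalb* did not pass between any of the littermate groups. The *Cntnap2* calls were lost without Nav1.7 littermate array 3 (adjusted p = 0.073 and 0.0731), and also without Nav1.8 littermate array 1 (0.0608) or Nav1.9 littermate array 3 (0.0625). The *Necab2* call for Nav1.9 minus Nav1.8 was lost without Nav1.8 littermate array 1 (adjusted p = 0.0546) or Nav1.9 littermate array 3 (0.0662). With a term for the *Xist* class, the differences of Nav1.7 minus Nav1.9 littermates were -0.24 for *Nefm* (adjusted p = 0.0651), 0.37 for *Necab2* (0.166) and 0.26 for *Cntnap2* (0.0628), while *Calb1* passed at 0.36 (0.0337). Line, litter and any array batch cannot be told apart here. The Nav1.7 littermate arrays were all *Xist*-high and the other littermate arrays all *Xist*-low, so sex cannot be told apart from line there either. The *Xist* term rests on the Nav1.7 and Nav1.8 KO groups, the only ones with both classes.

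**Figure D3:**
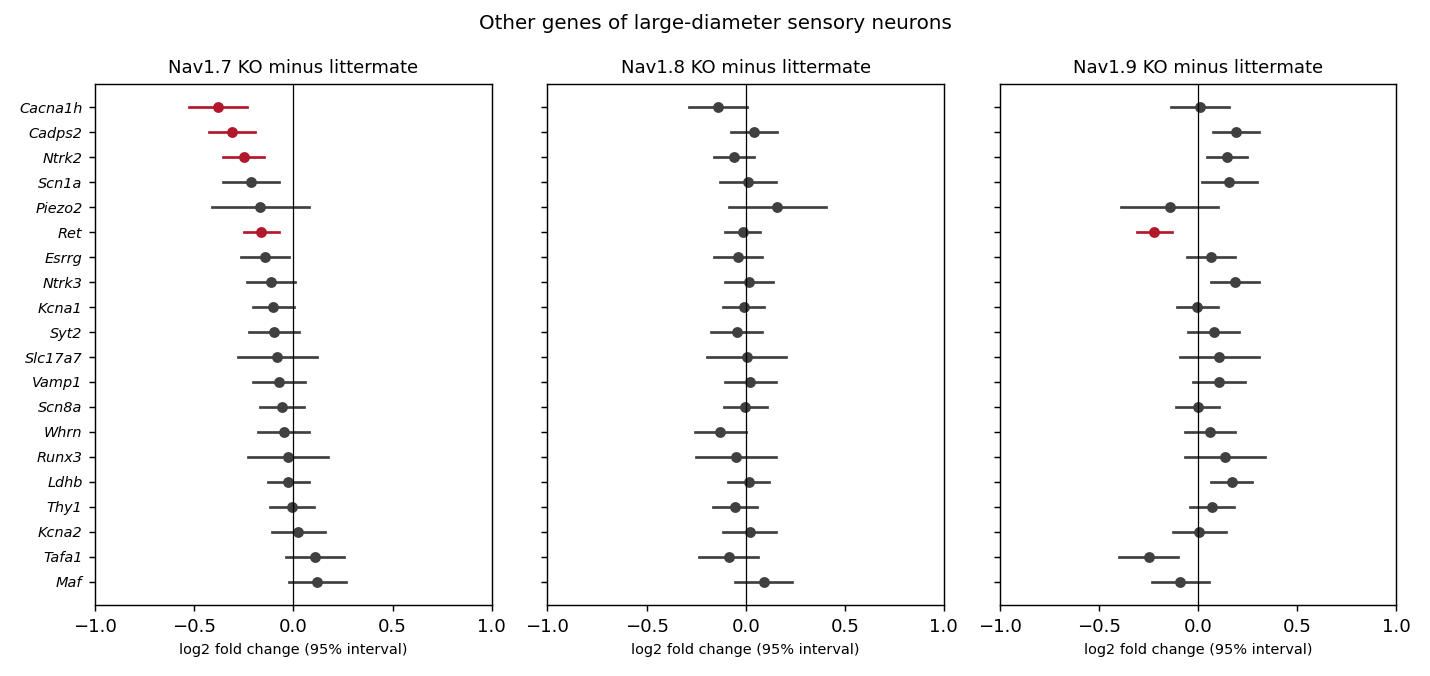
Log2 fold change of KO minus littermate arrays for 20 other genes of large-diameter sensory neurons in the 3 lines, with 95% intervals from limma and called genes in red. In Nav1.7 KO DRG *Cacna1h*, *Cadps2*, *Ntrk2* and *Ret* are called lower, from -0.38 to -0.16, and in Nav1.9 KO DRG only *Ret* is called, at -0.22.

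Other genes known from large sensory neurons were taken as a list of 21, of which 20 were measured. In Nav1.7 KO DRG 4 of them fell and 0 rose, and 17 of 20 had a negative log2 fold change, with a median of -0.09 against 0.01 over all genes. A list of 10 genes found in neurons in general also had a median of -0.09 there, with 8 of 10 negative. That list includes *Avil*, whose locus drives Cre in this line. Without *Avil* its mean level was 12.32 in Nav1.7 KO arrays and 12.37 in littermate arrays. The mean level of the 20 large-neuron genes was 10.26 and 10.36. Whether the lean was particular to large-neuron genes was not tested. *Cadps2*, a vesicle-priming protein gene, averaged 10.41 ± 0.117 in Nav1.7 KO arrays and 10.72 ± 0.00947 in littermate arrays (SD, n = 3 arrays each), a log2 fold change of -0.31 (adjusted p = 0.00316 from limma). *Cacna1h*, the T-type calcium channel Cav3.2 of D-hair mechanoreceptors and some C-fibres, averaged 8.11 ± 0.0616 in Nav1.7 KO arrays and 8.49 ± 0.117 in littermate arrays (SD, n = 3 arrays each; log2 fold change -0.38, adjusted p = 0.00367 from limma). *Ntrk2*, which encodes the BDNF receptor TrkB of D-hair mechanoreceptors, averaged 10.64 ± 0.0577 in Nav1.7 KO arrays and 10.89 ± 0.0219 in littermate arrays (SD, n = 3 arrays each; log2 fold change -0.25, adjusted p = 0.00575 from limma). These 3 calls held when each array of the line was left out in turn. With the mean over a gene's probe sets in place of the brightest, *Cacna1h* was at -0.20 (adjusted p = 0.111) and *Ntrk2* at -0.13 (0.0765), and with the line's 6 arrays fitted alone all 4 genes of the list missed the threshold (0.0657 for *Ntrk2*, 0.058 for *Cacna1h*, 0.0868 for *Cadps2* and 0.185 for *Ret*). The fourth gene, *Ret*, is a receptor for GDNF family ligands in both rapidly adapting mechanoreceptors and C-fibres, and its log2 fold change of -0.16 (adjusted p = 0.0375) was lost without littermate array 1 or 2 or KO array 1 or 2 (0.141, 0.102, 0.125 and 0.115).

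Proprioceptor genes of the list did not pass in Nav1.7 KO DRG. *Ntrk3*, the NT-3 receptor TrkC, had a log2 fold change of -0.11 (adjusted p = 0.34), *Runx3*, a transcription factor of proprioceptors, -0.03 (0.935) and *Vamp1*, a synaptic vesicle protein gene, -0.07 (0.622), by limma. *Scn1a*, the sodium channel Nav1.1, was at -0.21 (adjusted p = 0.0877) and *Piezo2*, the main touch-sensing channel, at -0.17 (0.522). The 4 of 20 called stand beside the 4.33% of all genes called in this comparison.

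In Nav1.8 KO DRG 0 of the 20 passed by limma, with 1 at an unadjusted p under 0.05, where 0.0165% of all genes were called. In Nav1.9 KO DRG 1 of the 20 was called, *Ret*, at -0.22 (adjusted p = 0.0281 from limma), where 0.473% of all genes were, and this was lost without littermate array 2 or 3 or any KO array (0.0539 to 0.119). The list leaned the other way: 14 of the 20 had a positive log2 fold change, with a median of 0.07 against 0.002 over all genes. All 9 satellite glia markers and 10 of 12 macrophage markers were negative there (medians -0.10 and -0.13). Of the genes of neurons in general 6 of 10 were negative (median -0.01), and of Schwann cell and myelin markers 5 of 8 were positive (9e-04). The part of these in the lean was not tested. By limma 7 of the 20 had an unadjusted p under 0.05, in both directions. The KO effect in Nav1.7 minus that in Nav1.9 was -0.40 for *Ntrk2*, -0.51 for *Cadps2*, -0.39 for *Cacna1h* and -0.37 for *Scn1a* (adjusted p = 0.00378, 0.00175, 0.0397 and 0.0418 from limma). The differences for *Ntrk2* and *Cadps2*, like that for *Necab2*, passed on leaving out each of the 12 arrays of both lines in turn, while *Cacna1h* and *Scn1a* did not pass without several of them. With the mean over a gene's probe sets the difference was -0.23 for *Ntrk2* (adjusted p = 0.0243), -0.19 for *Cacna1h* (0.325) and -0.41 for *Scn1a* (0.0994), and with the replicate block the adjusted p was 0.0622 for *Cacna1h* and 0.0935 for *Scn1a*, by limma.

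Other cytoskeleton, EF-hand and node genes were read as the neighbours of the markers. Beside the 4.33% of all genes called in Nav1.7 KO DRG, 2 of 13 genes of intermediate filaments and axonal transport were called, 3 of 10 other EF-hand genes and 1 of 14 genes of the node of Ranvier and its neighbours. The 2 axonal genes fell: *Kif5a*, a kinesin that moves cargo along axons (log2 fold change -0.29, adjusted p = 0.000362), and *Ina*, the alpha-internexin that assembles with neurofilaments (-0.29, 0.0103, lost without littermate array 3 or KO array 2 at 0.0524 and 0.0559), by limma. *Nefh*, *Nefm* and *Nefl* did not pass beside them. Of the EF-hand genes, *Vsnl1* (-0.27, adjusted p = 0.02, lost without littermate array 3 or KO array 2 at 0.0853 and 0.0918) and *Necab3* (-0.31, 0.0263, lost on leaving out each of the 6 arrays, at 0.0589 to 0.0796) fell, and *Hpcal1* (0.17, 0.038, lost on leaving out each of littermate arrays 1 and 3 and KO arrays 1, 2 and 3, at 0.0828 to 0.172) rose. *Necab3* is in the same family as *Necab2*, and so is *Necab1*, which did not pass and leaned the other way. The log2 fold change of *Necab1* was 0.14 (adjusted p = 0.215 from limma). It was 11.07 to 11.11 in Nav1.7 KO arrays and 10.90 to 10.99 in littermate arrays. The node gene was *Cntnap4*, a relative of *Cntnap2*, which rose in Nav1.7 KO DRG to 9.24 ± 0.122, against 8.51 ± 0.0876 in littermates (SD, n = 3 arrays each; 1.67-fold, adjusted p = 3.94e-06 from limma). Of 8 receptor genes for osteopontin 0 passed in any line, by limma, with 1 at an unadjusted p under 0.05 in the Nav1.7 line, 0 in the Nav1.8 line and 3 in the Nav1.9 line. None of the cytoskeleton, EF-hand or node genes passed in Nav1.8 or Nav1.9 KO DRG.

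Markers of other cells moved in the Nav1.7 line. *Th*, which marks C-low-threshold mechanoreceptors, averaged 7.55 ± 0.321 in Nav1.7 KO arrays and 9.81 ± 0.0849 in littermate arrays (SD, n = 3 arrays each; 4.8-fold lower, adjusted p = 6.46e-09 from limma). It was 1 of 9 markers of small-diameter nociceptors and C-fibres, of which 2 rose and 2 fell. The heat and capsaicin channel gene *Trpv1* (log2 fold change 0.61, adjusted p = 3.87e-06) and *Tac1*, the precursor gene of substance P (0.37, 9.68e-06), rose, by limma. *Gfra2*, a GDNF family co-receptor gene, fell (-0.31, adjusted p = 0.0128 from limma), which was lost without littermate array 2 or 3 or KO array 2 (0.0507 to 0.0585), with the replicate block (0.0573) and without the cross-hybridizing probe sets (-0.16, 0.304). The mean of 10 genes found in neurons in general was 12.28 to 12.33 in Nav1.7 KO arrays and 12.39 to 12.44 in littermate arrays, and 8 of the 10 were lower, among which *Avil* was called (-0.64, adjusted p = 8.03e-08 from limma). *Avil* is the locus that drives Cre in this line, and without it the mean of the other 9 genes was 12.29 to 12.35 in Nav1.7 KO arrays and 12.35 to 12.39 in littermate arrays. All 12 macrophage markers had positive log2 fold changes, with a median of 0.37 and 1 called, *Adgre1* (adjusted p = 0.0285 from limma, lost without littermate array 2 or 3 or KO array 2 or 3 at 0.0657 to 0.12), and their mean level was 7.003 to 7.40 in Nav1.7 KO arrays and 6.61 to 6.98 in littermate arrays. The mean of 8 Schwann cell and myelin markers was 10.47 to 10.71 in Nav1.7 KO arrays and 10.57 to 10.59 in littermate arrays, with 0 called by limma and 0 at an unadjusted p under 0.05. Of 9 satellite glia markers *Fabp7* was called at 0.36 (adjusted p = 0.0175 from limma, lost without littermate array 3 or KO array 1 or 2 at 0.0714 to 0.0812, and at 0.128 with the line fitted alone). Of 10 bone and cartilage markers and 9 spinal cord and brain markers 0 passed in the Nav1.7 line, by limma, with 0 and 2 at an unadjusted p under 0.05. The part of these in the *Necab2*, *Ntrk2*, *Cadps2* and *Cacna1h* differences was not tested.

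**Figure D4:**
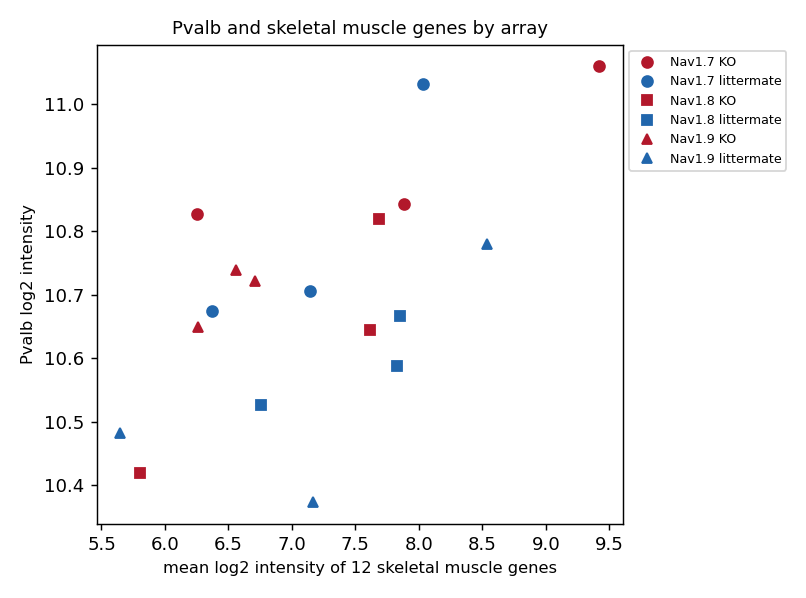
*Pvalb* log2 intensity against the mean log2 intensity of 12 skeletal muscle genes in each of the 18 arrays, with KO arrays in red, littermate arrays in blue and a marker shape for each line. Nav1.7 KO array 1 has the highest value on both axes, 11.06 and 9.42.

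Skeletal muscle genes varied widely between the arrays of a group, and *Pvalb* was read beside them. The mean of 12 muscle genes was 9.42, 6.25 and 7.88 in Nav1.7 KO arrays and 7.14, 6.37 and 8.03 in littermate arrays. In the Nav1.8 line it was 7.69, 7.62 and 5.80 in KO arrays and 7.83, 7.85 and 6.76 in littermate arrays, and in the Nav1.9 line 6.26, 6.71 and 6.56 in KO arrays and 5.65, 8.53 and 7.17 in littermate arrays. None of the 12 passed in any line by limma, with 0 at an unadjusted p under 0.05. Their median log2 fold change was 0.65 in Nav1.7, -0.57 in Nav1.8 and -0.52 in Nav1.9 KO DRG. That of *Pvalb* was 0.11, 0.03 and 0.16. Nav1.7 KO array 1 and Nav1.7 littermate array 3 had the 2 highest *Pvalb* values, 11.06 and 11.03, and Nav1.8 KO array 3, with a muscle mean of 5.80, had 10.42. Across groups other arrays ran differently: the lowest *Pvalb* value, 10.37 in Nav1.9 littermate array 3, stood beside a muscle mean of 7.17, and Nav1.7 KO array 2 had 10.83 beside 6.25. Within its own group, though, Nav1.7 KO array 2 had the lowest value of both. Within groups, the gene whose deviations followed *Pvalb* most closely was *Smpx*, a gene of striated muscle (Pearson r = 0.941 over 18 arrays). It was picked as the closest of 9095 genes compared. The part of muscle RNA in the *Pvalb* values was not tested.

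Deviations of the markers from their group means were compared with those of 9095 genes whose mean level was above the median of all genes. This was done over the 18 arrays, as a description across arrays that share labelling and hybridisation. With the group means taken out, 12 residual degrees of freedom remain. The genes named are the closest of all those compared, so their r values are high in part by selection. The r that the closest of as many unrelated genes would reach was not tested. *Nefh* was most like *Kcna1* (r = 0.923), the potassium channel held at juxtaparanodes, and *Pip4k2a* (0.913). *Necab2* was most like *Cops7a* (0.903) and *Rarres2* (0.894), and *Cntnap2* most like *Ldhb* (0.849) and *Slco5a1* (0.843). *Nefm* followed *Cldn5* (0.869) and *Pex6* (0.859), *Nefl* *Chgb* (0.841) and *Tafa2* (0.824), *Calb1* *F2r* (0.857) and *Tspoap1* (0.843), and *Pvalb* also *Rtn3* (0.925). Among the 21 pairs of markers the correlation ran between -0.171 and 0.768, with a median of 0.261, and 17 were positive. The highest was that of *Pvalb* with *Cntnap2* and the lowest that of *Calb1* with *Necab2*.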

How the data were processed

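RNA of DRG from all spinal levels was hybridised as biotinylated cRNA to Affymetrix Mouse Genome 430 2.0 arrays, 18 in 6 groups, and groups were taken from titles and genotype labels. The deposited values are log2 intensities, processed by the authors with the Affymetrix Expression Console software. The summary method, normalization and detection calls are not given in the sources used here, so the signal over background of dim probe sets is unknown, and array number limits the precision. Control probe sets (64) did not enter. By the platform's gene table, 34945 probe sets carry 1 symbol, 932 carry several and 9160 are unnamed here. The brightest probe set stood for a gene. Fits used limma 3.58.1 in R 4.3.3 (lmFit, eBayes, 6 group means, 12 residual and 3.44 prior degrees of freedom), with p adjusted over all 18193 genes or 45037 probe sets. An exact permutation test of 3 against 3 arrays cannot go below 0.1 two-sided. The text names all members, list genes that passed or had the smallest p, targeted genes and the 2 genes most like each member. The members and lists were chosen with earlier results of these data known, and the nerve injury list after the values here had been seen. The model was tested on simulated data. Alternatives are given in the closing section.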

Additional observations from a re-analysis of the deposited data

Results flagged for a closer look

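In these results KO minus littermate differed between 2 lines, which also takes in the gap between their littermate groups. The *Necab2* means were 8.42 and 7.92 in Nav1.7 and Nav1.9 littermates, and 7.98 and 8.21 in KO arrays. Those of *Cadps2* were 10.72 and 10.43 in littermates, and 10.41 and 10.63 in KO arrays. The Nav1.7 littermate arrays were all *Xist*-high and the Nav1.9 arrays all low. The part of the littermate gap was not tested. The effect in Nav1.7 minus that in Nav1.9 was -0.73 on the log2 scale for *Necab2* (adjusted p = 0.0106 from limma), the only one of the 7 markers. With the replicate block this was not called (0.0634). Among other genes of large neurons it was -0.51 for *Cadps2* (adjusted p = 0.00175), -0.40 for *Ntrk2* (0.00378), -0.39 for *Cacna1h* (0.0397, lost without Nav1.7 littermate array 2, KO array 2 or 3, or Nav1.9 littermate array 1 or 3, KO array 2 or 3, at 0.0678 to 0.0983) and -0.37 for *Scn1a* (0.0418, lost without Nav1.7 littermate array 2 or 3, KO array 2 or 3, or Nav1.9 littermate array 1 or 3, KO array 1 or 2, at 0.0776 to 0.104). With the mean over probe sets these were -0.23 for *Ntrk2* (adjusted p = 0.0243 from limma), -0.19 for *Cacna1h* (0.325) and -0.41 for *Scn1a* (0.0994), and the block ended the calls on *Cacna1h* (0.0622) and *Scn1a* (0.0935). Against Nav1.8, the effect in Nav1.7 differed by -0.35 for *Cadps2* (adjusted p = 0.0253 from limma), and this was lost without Nav1.7 littermate array 2 or 3, Nav1.7 KO array 1, Nav1.8 littermate array 1 or 2, or Nav1.8 KO array 2 or 3, at 0.054 to 0.0764, with the replicate block (0.0722) and with the *Xist* class in the model (-0.41, 0.0747).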

How the results depend on the processing

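The *Necab2* change in Nav1.7 KO DRG kept its direction under every alternative run, but 0 markers were called in place of 1 with the line's 6 arrays fitted alone, with a term for the *Xist* class, with the replicate number as a block (adjusted p = 0.0907 from limma) and by analysis of variance on the 6 arrays of the line, adjusted or at an unadjusted p under 0.01, and 0 to 1 when 1 array was left out. For the 13 probe sets the count in Nav1.7 KO DRG was 0 with the replicate block, 2 with a trend and robust prior and 0 to 1 when 1 array was left out.

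Among the other large-diameter neuron genes, 4 calls in Nav1.7 KO DRG became 0 with each line alone, 2 with the mean over a gene's probe sets and 0 by adjusted analysis of variance. The 1 call in Nav1.9 KO DRG became 0 with each line alone, with the mean over probe sets, with the block and by adjusted analysis of variance, 2 at an unadjusted p under 0.01 and 0 to 1 when 1 array was left out. The *Necab2* difference between the Nav1.7 and Nav1.9 effects was not called with the block (adjusted p = 0.0634, 0 markers). With the *Xist* class in the model, 0 markers were called between Nav1.7 and Nav1.8 littermates and 1 between Nav1.7 and Nav1.9 littermates, and leaving out 1 array gave 0 to 1 between Nav1.7 and Nav1.8 and 1 to 2 between Nav1.9 and Nav1.8 littermates.

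Small log2 fold changes turned sign without being called. *Nefm* in Nav1.7 KO DRG was 0.007 with array weights and -0.0327 to 0.0468 when 1 array was left out, and *Cntnap2* there was -0.0955 to 5e-04. When 1 array was left out in the Nav1.8 line, *Nefl* was -0.0282 to 0.0158, *Pvalb* -0.062 to 0.138 and *Cntnap2* -0.0162 to 0.0558, and *Nefm* in the Nav1.9 line was -0.0013 to 0.0498. With the *Xist* class, *Nefl* in Nav1.8 KO DRG was 0.017 and *Necab2* -0.0137. *Nefl* in Nav1.9 KO DRG was 0 after quantile normalization and *Calb1* -0.0022 with the mean of probe sets.

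KO and littermates share the replicate numbers 1 to 3, and the correlation of same-numbered deviations was 0.015, 0.252 and 0.266 in the Nav1.7 line, -0.11 to 0.263 in the Nav1.8 line and -0.194 to 0.062 in the Nav1.9 line, so the numbers were not taken to pair the arrays. Each Nav1.7 KO array was nonetheless most like the littermate array of its own number. With the replicate block, all genes called were 585, 2 and 38 for Nav1.7, Nav1.8 and Nav1.9, in place of 787, 3 and 86. For Nav1.9 they were 166 with dim genes left out, 173 with a trend and robust prior and 154 with array weights. By analysis of variance at an unadjusted p under 0.01 they were 832, 270 and 460. With each line alone they were 286, 1 and 8, and by adjusted analysis of variance 46, 0 and 0. The causes of these changes were not tested.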
